A study of Mus musculus with 4 samples.

Results

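Metallothioneins and a set of genes known to respond to glucocorticoids were followed across the cell types of the mouse thymic stroma and in RNA outside of cells. The 9 genes were Mt1, Mt2, Lcn2, Fkbp5, Tsc22d3, Sgk1, Per1, Zbtb16 and Nr3c1, of 32285 features counted in each library. They were chosen by symbol, because Mt1 and Lcn2 had been higher in 3 lineages of mutant thymi in these same libraries. All 9 were found in every library. The data were droplet single-cell RNA-seq counts of CD45-negative thymic cells from untreated C57BL/6 mice at 6 months of age, in 4 libraries. The pair called mock in the labels was wild type (WT 1 and WT 2), and the pair called mutant carried the Foxn1 LacZ allele in homozygous form (Z/Z 1 and Z/Z 2). Foxn1 is the transcription factor that thymic epithelial cells (TECs) need for their identity, and the study describes the LacZ allele as hypomorphic, with an early loss of Foxn1 in TECs. Each library pooled thymi of 10 to 15 mice, and the sex is given as female in one label and as male in another. Nothing in the labels says that the 2 libraries of a genotype came from separate pools processed on separate days, so p-values measure the spread between these libraries, which may be technical.

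The deposited matrices held 2731, 1192, 5558 and 4500 barcodes called as cells in WT 1, WT 2, Z/Z 1 and Z/Z 2, with 29298450, 8468086, 50705511 and 41475499 unique molecular identifiers (UMIs, 1 per captured transcript). After filtering, 9846 cells were kept, of which 4167 were TECs, 2681 fibroblasts, 1501 endothelial cells and 863 mural cells, the contractile and pericyte cells of vessel walls. WT 2 was the smallest library, with 103 TECs, 192 fibroblasts and 25 endothelial cells. Its 11 mural cells were too few to be summed, so the wild-type mural level rests on WT 1. In TECs, Foxn1 was counted at 90.3 and 127 CPM (UMIs scaled to the same total in every library) in the WT libraries and at 50.9 and 68.6 in the Z/Z libraries. Whether the counted 3′ end lies beyond the inserted LacZ was not checked. WT 1 and WT 2 shared 202 cell barcodes and the Z/Z libraries 249, against 6 or fewer across genotypes. Markers that define each lineage were present in its cells. A cluster led by Ano1 and Nos1 showed Epcam in under 25% of its cells and was placed among TECs by a marker set for an age-associated TEC class. Values for TECs are therefore also given without it where they differ.

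Metallothioneins are small cysteine-rich proteins that bind zinc and copper, and their genes are induced through metal response elements bound by the metal-sensing factor MTF1, as well as by glucocorticoids and inflammation. Glucocorticoids act through the receptor encoded by Nr3c1, which moves to the nucleus and binds response elements near its targets. Fkbp5 encodes a co-chaperone that lowers receptor affinity in a feedback loop, Tsc22d3 encodes the anti-inflammatory leucine zipper protein GILZ, Sgk1 encodes a serum- and glucocorticoid-regulated kinase, Per1 encodes a circadian clock repressor, and Zbtb16 encodes the zinc finger factor PLZF. Lcn2 encodes lipocalin 2, a secreted acute-phase protein that binds bacterial siderophores. In the thymus, glucocorticoids are best known for killing immature thymocytes.

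On the GRCm38 build, Mt2 (chr8:94172664-94173568) and Mt1 (chr8:94179082-94180327) lie side by side on the plus strand with 5513 bases between them. Their promoters, from 250 bases before to 50 after the start in RefSeq (GRCm38.p6), are shown because both genes moved together in these data. Capitals mark the metal response element cores, written TGCGCNC or TGCACNC on either strand.
Mt1, chr8:94178839-94179138: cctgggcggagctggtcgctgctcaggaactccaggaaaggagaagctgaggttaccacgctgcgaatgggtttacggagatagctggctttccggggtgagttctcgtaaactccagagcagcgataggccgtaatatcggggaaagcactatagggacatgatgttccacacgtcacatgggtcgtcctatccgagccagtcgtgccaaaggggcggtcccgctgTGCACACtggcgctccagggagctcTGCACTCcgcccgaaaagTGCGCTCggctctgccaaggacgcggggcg
Mt2, chr8:94172368-94172667: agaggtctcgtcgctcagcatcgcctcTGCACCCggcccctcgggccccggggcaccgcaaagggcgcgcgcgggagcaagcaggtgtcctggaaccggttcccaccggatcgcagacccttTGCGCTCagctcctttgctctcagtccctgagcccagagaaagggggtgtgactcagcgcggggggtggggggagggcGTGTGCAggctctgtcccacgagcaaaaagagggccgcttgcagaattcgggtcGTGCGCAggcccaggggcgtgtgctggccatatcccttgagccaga
The Mt1 window held 3 such cores and the Mt2 window 4. Of 32817 promoter windows of the same length, 25.7% held at least 1 core of either form and 0.518% held 4 or more. A full palindrome of the glucocorticoid response element (AGAACA, any 3 bases, then TGTTCT, which reads alike on both strands) was found in 0.00914% of the windows, which is 3 in all. One of them was a window of Sgk1 (chr10:21993640-21993939), where the match reads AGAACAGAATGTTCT and starts 189 bases before the start site. Neither window of the metallothioneins held the palindrome, and those of Lcn2 (chr2:32387690-32387989, minus strand) and Fkbp5 (chr17:28486100-28486399, minus strand) held neither motif. RefSeq windows were matched for 7 of the 9 genes, all but Zbtb16 and Nr3c1. These matches describe letters in the window only.

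The first question was where in the stroma the 9 genes are expressed. UMIs were summed over the cells of each lineage in each library and are given as CPM. Lineages were compared within libraries with edgeR's quasi-likelihood test and Benjamini-Hochberg adjustment over 16027 genes, since the choice of the 9 genes did not rest on lineages. Between TECs and fibroblasts, 7 of the 9 genes passed an adjusted p of 0.05, as did 56.3% of all genes. The count was 6 of 9 between TECs and endothelial cells, against 50.9% of all genes, and 5 of 9 between TECs and mural cells, against 46.3%. It was 3 of 9 between fibroblasts and endothelial cells (40.5% of all genes), 6 of 9 between fibroblasts and mural cells (34.2%) and 6 of 9 between endothelial and mural cells (36.6%). Composition scaling moved TECs against the other 3 lineages by 0.33 to 0.48 on the log2 scale. A pair whose difference is smaller than that shift can change direction with the scaling.

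Mt1, the more highly counted metallothionein, was highest in mural cells and fibroblasts. Mural cells held 3646 CPM in WT 1 and 6879 and 6989 in the Z/Z libraries. Fibroblasts held 2139 and 1824 in the WT libraries and 4873 and 7336 in the Z/Z libraries. These 2 lineages did not pass the test against each other (log2 difference 0.42 ± 0.28 SE, adjusted p = 0.275, edgeR). TECs followed with 918, 782, 4468 and 4487 CPM in WT 1, WT 2, Z/Z 1 and Z/Z 2, lower than fibroblasts by a log2 difference of 1.19 ± 0.25 (adjusted p = 0.00112, edgeR). The lineage gap was present within each genotype: TECs minus fibroblasts gave -1.55 ± 0.25 in the WT libraries alone and -0.79 ± 0.16 in the Z/Z libraries alone. Endothelial cells held the least Mt1, with 163, 116, 617 and 691 CPM, lower than TECs by 2.35 ± 0.26 (adjusted p = 6.07e-06, edgeR). In all 4 libraries the order from the lowest was endothelial cells, TECs and fibroblasts. Mural cells, not summed in WT 2, were above fibroblasts in WT 1 and Z/Z 1 and under them in Z/Z 2.

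Mt2 followed Mt1 in TECs and endothelial cells, but not in mural cells. Fibroblasts held 1064, 766, 1512 and 2196 CPM of Mt2, more than the 544, 735 and 818 in mural cells of WT 1, Z/Z 1 and Z/Z 2 (log2 difference 1.16 ± 0.33, adjusted p = 0.0145, edgeR). This call was lost when either Z/Z library was left out (adjusted p = 0.0665 without Z/Z 1 and 0.153 without Z/Z 2). TECs, with 351, 316, 1134 and 1042 CPM of Mt2, did not pass the test against mural cells (0.30 ± 0.32 lower, adjusted p = 0.467), and without composition scaling the sign turned to 0.17 higher. Endothelial cells were again lowest, with 67.2 CPM of Mt2 in WT 1, 5.26 in WT 2 (a single UMI), 143 in Z/Z 1 and 134 in Z/Z 2, and lay 2.60 ± 0.32 under TECs (adjusted p = 1.38e-05, edgeR).

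Lcn2 had a different distribution and was a TEC transcript. TECs held 28.9, 34.7, 191 and 123 CPM in WT 1, WT 2, Z/Z 1 and Z/Z 2. Fibroblasts held 1.09 and 1.05 in the WT libraries and 12.3 and 22.0 in the Z/Z libraries. Endothelial cells had 0 UMIs of 1127060 in the WT libraries together, which allows up to 2.66 CPM, and 15.5 and 17.5 in the Z/Z libraries. Mural cells had 0 UMIs in WT 1, and 2.57 and 1.14 CPM in the Z/Z libraries. TECs exceeded endothelial cells by 3.29 ± 0.42 on the log2 scale (adjusted p = 2.11e-05, edgeR), and by 2.86 ± 0.46 without the TEC cluster discussed below. Endothelial cells and fibroblasts did not pass the test against each other (0.10 ± 0.40, adjusted p = 0.878), and fibroblasts lay above mural cells (2.76 ± 0.64, adjusted p = 0.00401, edgeR). Without Z/Z 2 that last difference was 2.00 with an adjusted p of 0.0543.

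**Figure D1:**
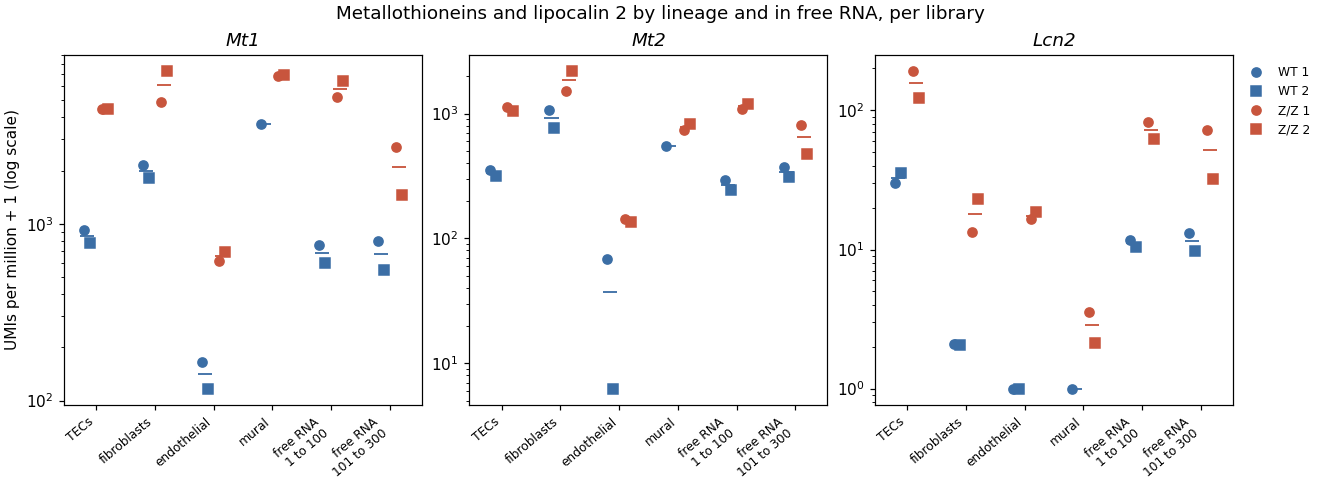
CPM plus 1 (log axis) of Mt1, Mt2 and Lcn2 in each library, by lineage and in barcodes with 1 to 100 and over 100 and up to 300 UMIs that were not called as cells. Circles and squares are replicates 1 and 2 and bars are means of a genotype. Mt1 lies lowest in endothelial cells and Lcn2 highest in TECs in every library, and free RNA holds Mt1 at 596 to 762 in WT and 5206 and 6411 in Z/Z libraries (1 to 100 UMIs).

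The glucocorticoid receptor gene Nr3c1 was counted at 267, 337, 276 and 275 CPM in endothelial cells of WT 1, WT 2, Z/Z 1 and Z/Z 2, and at 260.0, 261, 198 and 187 in fibroblasts. These lineages did not pass the test against each other (0.34 ± 0.17 on the log2 scale, adjusted p = 0.133). Mural cells followed with 154, 98.0 and 131 in the 3 libraries used, under fibroblasts by 0.62 ± 0.20 (adjusted p = 0.0236, edgeR), a call lost in 3 of the 4 fits that left out a library (adjusted p up to 0.229). TECs were lowest, with 109, 166 (1 cell held 198 of the 384 UMIs), 75.4 and 80.9, under mural cells by 0.87 ± 0.20 (adjusted p = 0.00256, edgeR). Without composition scaling that last difference was 0.41 with an adjusted p of 0.0816, and without Z/Z 2 the adjusted p was 0.0506. Thymocytes left in the sort held more Nr3c1 than any of the 4 lineages, at 930 and 1054 in the WT libraries and 571 in Z/Z 2, from 90, 38 and 34 cells. They serve here as a reference for free RNA and were not tested.

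Sgk1 marked endothelial cells. Endothelial cells held 328, 221, 407 and 373 CPM in WT 1, WT 2, Z/Z 1 and Z/Z 2, against 67.0, 75.0, 55.2 and 49.9 in fibroblasts, a log2 difference of 2.44 ± 0.23 (adjusted p = 1.64e-06, edgeR). After each cell was thinned to 2000 UMIs, a UMI of Sgk1 was seen in 36.2%, 20.0%, 46.9% and 45.6% of endothelial cells and in 2.82%, 3.34% and 3.81% of mural cells of WT 1, Z/Z 1 and Z/Z 2. TECs held 41.6, 60.7, 47.7 and 44.1, lower than fibroblasts (0.73 ± 0.22, adjusted p = 0.0124, edgeR) with composition scaling but not past the threshold without it (0.35, adjusted p = 0.147). The adjusted p was also 0.0804 without WT 1. Mural cells held 18.8, 21.7 and 25.2 and did not pass the test against TECs (adjusted p = 0.0877, edgeR).

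Per1 was the mural gene of the set. Mural cells held 87.2, 86.2 and 85.9 CPM in WT 1, Z/Z 1 and Z/Z 2, and no other lineage of any library reached 40. Fibroblasts had 23.2, 21.4, 33.2 and 38.2, a log2 difference of 1.61 ± 0.19 (adjusted p = 1.58e-05, edgeR). Fibroblasts, endothelial cells (29.9, 21.0, 29.0 and 30.1) and TECs (30.7, 34.7, 38.3 and 33.1) did not pass any test among themselves. Their order changed with the scaling.

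Zbtb16 was lower in TECs than in the other 3 lineages in the fit and in 3 of the 4 libraries. TECs held 39.9, 19.9, 66.8 and 58.5 CPM in WT 1, WT 2, Z/Z 1 and Z/Z 2. Fibroblasts held 161, 124, 62.5 and 121, endothelial cells 189, 195, 49.7 and 166, and mural cells 133, 60.9 and 116 in the 3 libraries used. Z/Z 1 was the lowest library in each of the latter 3 lineages, and there the order was turned, with TECs the highest. TECs lay under mural cells by 1.41 ± 0.43 (adjusted p = 0.0156, edgeR), a call lost without WT 1 (adjusted p = 0.0937) or Z/Z 2 (0.0827) and without composition scaling (0.0830). The other 3 lineages did not pass any test among themselves for Zbtb16.

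Fkbp5 and Tsc22d3 were spread more evenly. For Fkbp5, fibroblasts (183, 169, 126 and 103 CPM in WT 1, WT 2, Z/Z 1 and Z/Z 2) exceeded TECs (92.1, 80.1, 147 and 118) by 0.71 ± 0.25 (adjusted p = 0.0273, edgeR), and the groups overlapped in the Z/Z libraries. That difference was -1.37 ± 0.23 for TECs minus fibroblasts in the WT libraries alone and -0.15 ± 0.11 in the Z/Z libraries alone, and it was lost without WT 1 (adjusted p = 0.0952) or WT 2 (0.154) and without composition scaling (0.280). Fibroblasts also lay above mural cells (115, 64.2 and 54.4) by 0.86 ± 0.29 (adjusted p = 0.0373, edgeR), a call lost in 3 of the 4 fits that left out a library (adjusted p = 0.0538 when WT 2 was omitted, 0.133 for Z/Z 1 and 0.172 for Z/Z 2). Tsc22d3 passed none of its 6 lineage tests (smallest adjusted p = 0.0754, edgeR). This rested on composition scaling, without which TECs exceeded fibroblasts by 0.76 (adjusted p = 0.000965), endothelial cells by 0.55 (0.0134) and mural cells by 0.47 (0.0450). With DESeq2 the TEC and fibroblast difference was 0.52 (adjusted p = 0.000301). Its levels ran from 31.9 in fibroblasts of Z/Z 2 to 84.9 in TECs of WT 2.

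**Figure D2:**
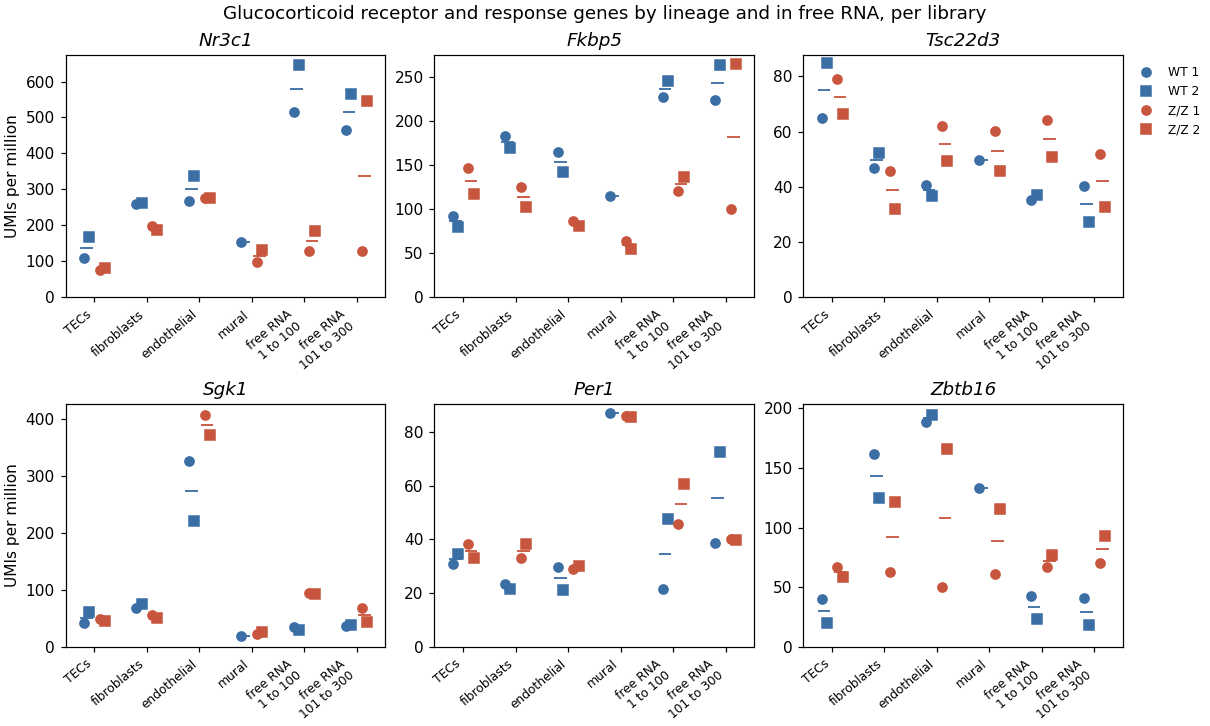
CPM (linear axes from 0) of Nr3c1, Fkbp5, Tsc22d3, Sgk1, Per1 and Zbtb16 in each library, by lineage and in free RNA. Circles and squares are replicates 1 and 2 and bars are means of a genotype. Sgk1 stands out in endothelial cells (221 to 407) and Per1 in mural cells (85.9 to 87.2), while Fkbp5 is higher in Z/Z than WT libraries in TECs and lower in the other 3 lineages.

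The second question was how the 9 genes differ between genotypes. They had been chosen from this contrast, so the values below are a description and carry no test. In TECs, 4 of the 9 genes (Mt1, Mt2, Lcn2 and Fkbp5) passed an adjusted p of 0.05, all higher in Z/Z, where 21.7% of all 18855 genes tested passed and 9.87% passed as higher. Fkbp5 lost its call without the TEC cluster led by Ano1 and Nos1 (0.66, adjusted p = 0.0703), without doublet removal (0.0518), without composition scaling (0.0599), without Z/Z 1 (0.159) or Z/Z 2 (0.0553), and with the free RNA ceiling of barcodes of over 100 and up to 300 UMIs subtracted (0.0566), all by edgeR. The count was 3 of 9 in fibroblasts (Mt1, Mt2 and Lcn2, all higher) beside 3.05% of all genes and 1.82% higher, 2 of 9 in endothelial cells (Mt1 and Lcn2, both higher) beside 1.87% and 0.943% higher, and 2 of the 8 tested in mural cells (Mt1 higher and Fkbp5 lower) beside 3.89%, with 2.37% higher and 1.51% lower. The libraries of the 2 genotypes did not overlap for 6 of 9 genes in TECs, 9 of 9 in fibroblasts, 7 of 9 in endothelial cells and 7 of 8 in mural cells. Over all genes tested, the corresponding shares were 67.2%, 50.7%, 53.3% and 77.8%. Nothing about the genes is read from these counts.

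Mt1 was higher in both Z/Z libraries than in every WT library in each of the 4 lineages, by the levels given above. On the log2 scale the difference was 2.54 ± 0.20 in TECs, 1.69 ± 0.22 in fibroblasts, 2.15 ± 0.24 in endothelial cells and 0.93 ± 0.25 in mural cells, a ratio of means of 5.27, 3.08, 4.69 and 1.90. The TECs of the 2 genotypes lay in different clusters: the cluster with Aire, low in Mt1, held 283 of 558 and 49 of 103 WT TECs against 59 of 1962 and 83 of 1544 in Z/Z. Within the 5 TEC clusters that could be compared, the ratio of means was 1.78 to 2.51. Mt2 differed less than Mt1 in each, by 1.85 ± 0.16, 1.09 ± 0.22, 1.41 ± 0.38 and 0.51 ± 0.24. In endothelial cells the Mt2 value ranged from 1.02 without WT 2 to 4.85 without WT 1, since WT 2 held 1 UMI. With each TEC thinned to 2000 UMIs, a UMI of Mt1 was seen in 42.7% and 38.6% of WT cells and in 71.0% and 73.4% of Z/Z cells. In fibroblasts the shares were 63.2%, 60.9%, 77.9% and 89.6%. Thymocytes, the reference for free RNA, showed a UMI of Mt1 in 9.41% and 6.06% of cells of WT 1 and WT 2 and in 18.75% of Z/Z 2, at median depths of 5508, 5140.5 and 2859.5 UMIs before thinning. The free RNA of the Z/Z libraries held more Mt1, and its part in these shares was not tested.

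Lcn2 in TECs differed by 2.47 ± 0.27 on the log2 scale, and much of this came from few cells. In Z/Z 1 a single cell held 2079 of the 3893 Lcn2 UMIs. It belonged to a cluster of 17 cells in that library that was led by genes of secretory epithelium, among them Muc5b, Bpifa1 and Ltf. Without this cluster the TEC levels were 28.2 and 35.2 CPM in WT and 90.9 and 121 in Z/Z, and the difference was 1.91 ± 0.22. When every cell was thinned to 2000 UMIs, so that no cell could weigh more than another, it was 0.85. The share of thinned TECs with a UMI of Lcn2 was 3.88%, 3.96%, 7.10% and 7.47% in WT 1, WT 2, Z/Z 1 and Z/Z 2, and the WT and Z/Z libraries did not overlap. Thymocytes of WT 1 and WT 2 had no UMI in 85 and 33 thinned cells, which allows shares of up to 3.53% and 9.09%, and 1 of 32 cells of Z/Z 2 had one, so the background share was not known closely. In fibroblasts the difference was 4.03 ± 0.44, from 9 and 3 UMIs in WT against 146 and 162 in Z/Z. In endothelial cells the Z/Z mean was at least 6.20-fold higher than the limit that 0 UMIs allow over both WT libraries. A UMI was seen in 0 of 105 and 0 of 25 thinned WT endothelial cells, which allows shares of up to 2.86% and 12.0%, against 1.34% and 1.08% in Z/Z. The share of cells therefore could not be compared at this depth. In mural cells both genotypes were under the level that 3 UMIs in WT 1 would give, and no ratio is given.

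The endothelial sums of the metallothioneins leaned on a small cluster. It held 2, 1, 24 and 19 cells in WT 1, WT 2, Z/Z 1 and Z/Z 2, its leading genes were Lin7a, Ccl11, Steap4, Ifitm1 and Rgs4, and its cells had a median of 20460 UMIs. These cells held endothelial markers at 2017 to 3950 CPM and mural markers at 1835 to 9311, where the endothelial lineage as a whole held mural markers at 110 to 326. They carried 55.6%, 72.7%, 43.5% and 36.5% of the endothelial Mt1 UMIs. Without the cluster, Mt1 was at 74.6, 32.7, 383 and 473 CPM, and the Z/Z libraries were still above both WT libraries. The Mt1 difference between genotypes was 2.76 ± 0.30 without it. TECs then exceeded endothelial cells by 3.18 ± 0.34 (adjusted p = 3.48e-06, edgeR). Mt2 was at 68.0 CPM in WT 1, 0 in WT 2 and 95.3 and 113 in the Z/Z libraries, with a difference of 1.03 ± 0.45. Whether these barcodes hold 2 cells was not tested.

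The receptor and its target genes did not share one direction between genotypes. Fkbp5 was higher in Z/Z TECs by 0.76 ± 0.17 and lower in the other lineages, by -0.55 ± 0.16 in fibroblasts, -0.92 ± 0.22 in endothelial cells and -0.94 ± 0.28 in mural cells. Zbtb16 differed in the same manner, by 1.16 ± 0.32 in TECs and by -0.58 ± 0.27, -0.83 ± 0.43 and -0.63 ± 0.27 in the other 3. Nr3c1 itself was at -0.67 ± 0.23 in TECs, -0.37 ± 0.15 in fibroblasts, -0.09 ± 0.21 in endothelial cells and -0.44 ± 0.26 in mural cells. None of these Zbtb16 and Nr3c1 values passed the threshold in the fit over all genes. A single TEC of WT 2 held 198 of the 384 Nr3c1 UMIs of that library's TECs. With a library left out, the Nr3c1 value in TECs ranged from -0.97 to -0.30. Free RNA, described below, could supply up to 29.6% of the Nr3c1 level in TECs, and it also held less Nr3c1 in Z/Z. By cluster, Nr3c1 was lower in Z/Z in 4 of the 5 TEC clusters compared and higher in 1, and the corresponding share of all genes was not computed. Per1 was higher in Z/Z fibroblasts by 0.74 ± 0.19, while its 3 mural values all lay between 85.9 and 87.2 CPM. For Sgk1 and Tsc22d3, WT and Z/Z TECs overlapped (0.00 ± 0.23 and 0.11 ± 0.20).

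**Figure D3:**
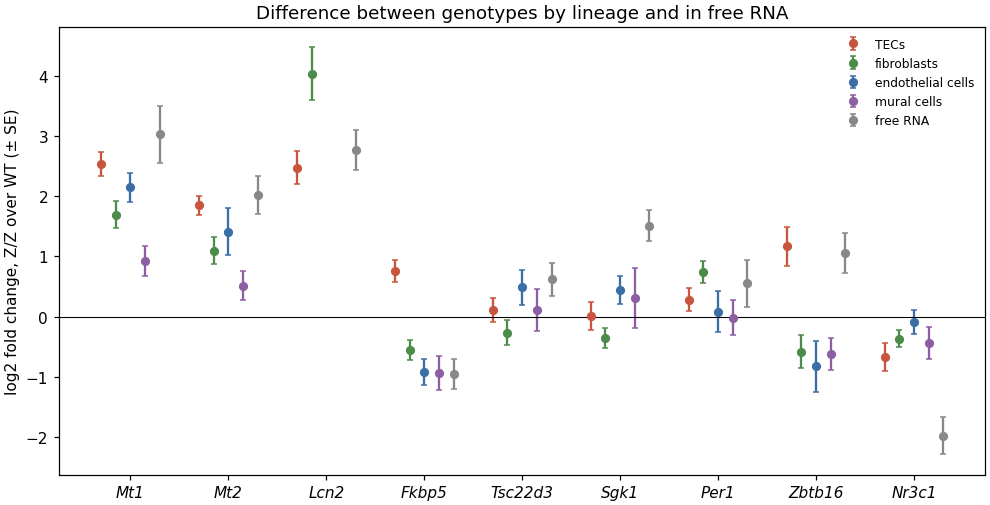
Log2 fold change of Z/Z over WT with its standard error for the 9 genes, in each of the 4 lineages and in free RNA, from edgeR fits with 2 libraries per genotype (1 WT library in mural cells). Lcn2 has no point in endothelial cells, where both WT libraries were at 0, nor in mural cells. Mt1 and Mt2 lie above 0 in all 5 sources, while Fkbp5 lies above 0 in TECs and under it elsewhere.

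Other quantities moved with the genotype and their part in these values was not tested. In TECs, median UMIs per cell were 16552 and 17803 in WT against 6746.5 and 7031 in Z/Z, and the mitochondrial share was 4.43% and 4.45% against 2.81% and 3.21%. The 17 immediate early genes, which rise when tissue is dissociated, summed to 9567 and 11973 CPM in WT TECs and to 24013 and 21075 in Z/Z TECs. In fibroblasts these sums overlapped (16090 and 19022 in WT, 21113 and 14427 in Z/Z), in endothelial cells they were higher in Z/Z (14790 and 14541 against 18773 and 16404), and in mural cells WT 1 was highest (23592 against 20231 and 19919). Markers of macrophages and dendritic cells in TECs were at 267 and 660 in WT against 58.7 and 85.0 in Z/Z. The 8 markers of neutrophils, a cell type rich in Lcn2, summed to 62.8, 80.1, 5.31 and 44.97 CPM in TECs of WT 1, WT 2, Z/Z 1 and Z/Z 2. Among the 8 is Ltf, which is also a leading gene of the small TEC cluster with Muc5b. In fibroblasts the 8 markers summed to 1.2 to 1.8 CPM in all 4 libraries, and 2, 6, 3 and 3 of the 8 were at 0. In endothelial cells they summed to 1.1, 0, 1.7 and 1.5, and 7, 8, 3 and 4 of the 8 were at 0. The 5 erythroid markers were higher in Z/Z endothelial cells (336 and 289 CPM in WT against 4070 and 4532) and lower in Z/Z TECs (661 and 221 against 95.02 and 12.5), fibroblasts (317 and 2457 against 3.95 and 6.10) and mural cells (419 in WT 1 against 8.81 and 4.58).

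The third question was how much RNA outside of cells could account for these levels. Droplets without a cell still capture free RNA, and it was read from barcodes with 1 to 100 UMIs in the raw matrices that were not called as cells. Free RNA held Mt1 at 762 and 596 CPM in WT and at 5206 and 6411 in Z/Z libraries, a log2 difference of 3.02 ± 0.47. It held Mt2 at 294, 244, 1086 and 1198 and Lcn2 at 10.7, 9.4, 81.4 and 61.5, with differences of 2.01 ± 0.32 and 2.76 ± 0.33. For Mt1 and Mt2 these differences were larger than in any of the 4 lineages, and for Lcn2 the difference lay between those of TECs and fibroblasts. In free RNA, 7 of the 9 genes passed the threshold (5 higher and 2 lower), beside 29.5% of all genes (15.1% higher and 14.4% lower), and 8 of 9 did not overlap, beside 72.1%. In barcodes with over 100 and up to 300 UMIs none of the 9 genes passed the edgeR test, with 2 at an unadjusted p under 0.05, and the ratio of means was smaller, at 3.11 for Mt1, 1.90 for Mt2 and 4.89 for Lcn2, against 8.56, 4.25 and 7.11 at 1 to 100 UMIs. Nr3c1 and Fkbp5 were lower in Z/Z free RNA, with Nr3c1 at 515 and 646 in WT against 127 and 185 in Z/Z. The 8 thymocyte markers in the same free RNA were at 948 and 1738 CPM in WT and at 100.3 and 542 in Z/Z, and their part in the Nr3c1 and Fkbp5 values was not tested.

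The share of each cell's UMIs that free RNA can supply was bounded from above, because markers of other cell types enter a lineage in the ratio they have in free RNA. The marker list with the lowest ratio gave a ceiling of 5.84% ± 1.57 (SD, n = 4 libraries) of the UMIs in TECs, and mean ceilings of 2.28%, 2.40% and 2.74% in fibroblasts, endothelial and mural cells. At this ceiling, free RNA could supply 2.68% to 9.82% of the Mt1 level in TECs, 0.70% to 2.16% in fibroblasts, 12.7% to 17.6% in endothelial cells and 0.62% to 2.17% in mural cells. For Lcn2 it could supply 0.95% to 3.45% in TECs, 5.63% to 27.9% in fibroblasts and 6.65% to 10.3% in the Z/Z endothelial cells. The Lcn2 level of mural cells lay near or at the ceiling (90.6% in Z/Z 1 and 127% in Z/Z 2), as did the 1 UMI of Mt2 in WT 2 endothelial cells. Those values are read as background. As a further reference, the thymocytes of the sort held 32.6 and 33.8 CPM of Mt1 in WT and 356 in Z/Z 2, well under every TEC, fibroblast and mural value of the same library. Endothelial cells stood less clear of this reference. Without the small cluster with Rgs4, their Mt1 level in WT 2 was no higher than in its thymocytes, and that in Z/Z 2 was not far above. The endothelial ceilings of Mt1 were computed with that cluster included, and are not given without it.

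The relation of the 2 metallothioneins to each other also differed between sources. Of all Mt1 and Mt2 UMIs together, Mt2 made up 27.6% and 28.8% in WT TECs and 20.2% and 18.8% in Z/Z TECs. In fibroblasts it was 33.2% and 29.6% against 23.7% and 23.0%, and in mural cells 13.0% in WT 1 against 9.65% and 10.5%. The exact binomial intervals of these libraries did not overlap between genotypes within each of these lineages, though they cover counting error only. In free RNA of 1 to 100 UMIs the share was 27.9% and 29.0% in WT against 17.3% and 15.7% in Z/Z. Endothelial cells of WT 2 had 23 metallothionein UMIs in all, with an interval of 0.11% to 21.9%, and could not be placed.

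**Figure D4:**
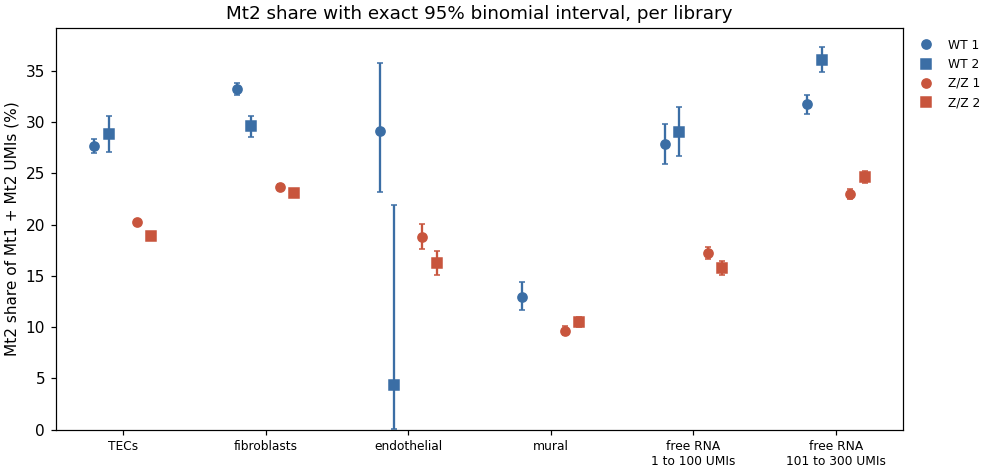
Share of Mt2 in the sum of Mt1 and Mt2 UMIs (percent, axis from 0) by lineage and in free RNA for each library. Bars through the points are exact binomial 95% intervals, which cover counting error only. The share is lower in Z/Z than in WT libraries in TECs, fibroblasts, mural cells and free RNA, and is 9.65% to 13.0% in mural cells. The lowest point, 4.35% in endothelial cells of WT 2, rests on 23 UMIs.

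Within lineages, the metallothioneins were far from uniform. Cells of each lineage were clustered again, without the 9 genes or the marker lists, and levels are given for clusters with at least 20 cells in a library. Clusters are named by leading genes, and differences among them are a description. Among TEC clusters of Z/Z 1, Mt1 ran from 161 to 14270 CPM. The highest was the cluster led by Ano1 and Nos1, at 14270 in Z/Z 1 and 10768 in Z/Z 2, which was nearly absent from WT with 13 and 0 cells. Removal of the matching cluster of all cells (12, 0, 558 and 381 cells) took the TEC levels of Mt1 to 871, 782, 2550 and 3590, and the genotype difference from 2.54 to 2.02 ± 0.24. That of Mt2 went from 1.85 to 1.35 and that of Lcn2 from 2.47 to 2.67. The cluster led by Prss16 and Psmb11, genes of cortical TECs, held 1714 in WT 1 against 3404 and 5200 in Z/Z. The cluster led by Ccl21a, a medullary chemokine, held 1983, 3488 and 3554. The cluster that included Aire, the factor that drives tissue-restricted antigens in medullary TECs, held 449.9 and 460.5 in WT against 874 and 957 in Z/Z. The lowest in the Z/Z libraries, led by Kctd16 and Mgat5b, held 161 and 167. Outside the 4 lineages, an unnamed cluster with S100b held Mt1 at 10734 in Z/Z 1 and 6602 in Z/Z 2, on 109 and 39 cells.

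Lcn2 had another order among the same TEC clusters. The Nos1 cluster, highest in Mt1, was among the lowest in Lcn2 with 4.50 and 13.7 CPM in the Z/Z libraries. The highest level was in the cluster led by Gm26917 in Z/Z 2, at 279, where Z/Z 1 held 31.7 and WT 1 14.9, on 50, 11 and 3 UMIs. The cluster led by Otog and Ush1c held 165 and 217, and the Prss16 cluster held 29.0 in WT 1 against 149 and 179.8 in Z/Z. The cluster led by Gm26802 and Gm3336 went the other way, with 85.4 in WT 1 against 44.96 and 58.0 in Z/Z, on 36, 136 and 122 UMIs. In the Aire cluster, Z/Z 1 (15.5) was close to WT 1 (14.7), while Z/Z 2 was at 93.2 and WT 2 at 3.48.

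Fibroblast clusters also differed in Mt1. The Pi16 cluster, a class of adventitial fibroblasts, held 3064 and 2853 CPM in WT against 5607 and 7131 in Z/Z. The cluster led by Tnc, an extracellular matrix gene, held 882 in WT 1 against 953 and 1691 in Z/Z. A cluster of 279 and 112 WT cells led by Pcdh15 held 1402 and 1278, and a cluster led by Wdr95 that was mainly of Z/Z cells held 757 and 626. Lcn2 in fibroblasts was highest in a cluster led by Sult1e1 and Agt, with 75.4 and 149 CPM, which held 1, 0, 40 and 35 cells. In endothelial cells, 44 of 80 Lcn2 UMIs of Z/Z 1 and 55 of 84 of Z/Z 2 lay in the cluster led by F5 and Selp, genes of venous endothelium (47.2 and 52.1 CPM). That cluster had no UMI of Lcn2 in 24 cells of WT 1.

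The genotype difference was looked at cluster by cluster wherever both Z/Z libraries and at least 1 WT library had 20 cells or more, mostly with WT 1 alone on the WT side. Mt1 was higher in Z/Z in 5 of 5 TEC, 3 of 3 fibroblast and 3 of 3 endothelial clusters, with no overlap of libraries. The ratio of means was 1.5 to 2.15 in the fibroblast clusters and 3.33 to 10.9 in the endothelial ones. The ratio of 10.9 was in the F5 and Selp cluster, where WT 1 alone held 33.3 CPM, close to the Mt1 level of its thymocytes. For Lcn2 the counts were 4 of 5, 3 of 3 and 3 of 3, and for Mt2 5 of 5, 2 of 3 and 2 of 3. Fkbp5 was lower in Z/Z in 3 of 3 fibroblast and 3 of 3 endothelial clusters, but in TECs it was higher in 2, lower in 2 and overlapping in 1. The share of all genes without overlap was not computed for clusters. In the mural sums, also with WT 1 alone on the WT side, it was 77.8%. Nothing about the genes is read from these counts. Sgk1 in endothelial clusters ran from 146 in the cluster of WT 1 led by Nebl and Gkn3 to 661 in the cluster of Z/Z 1 led by Col13a1 and Penk. The F5 and Selp cluster was low in each library with enough cells, at 216, 152 and 160.1 in WT 1, Z/Z 1 and Z/Z 2.

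**Figure D5:**
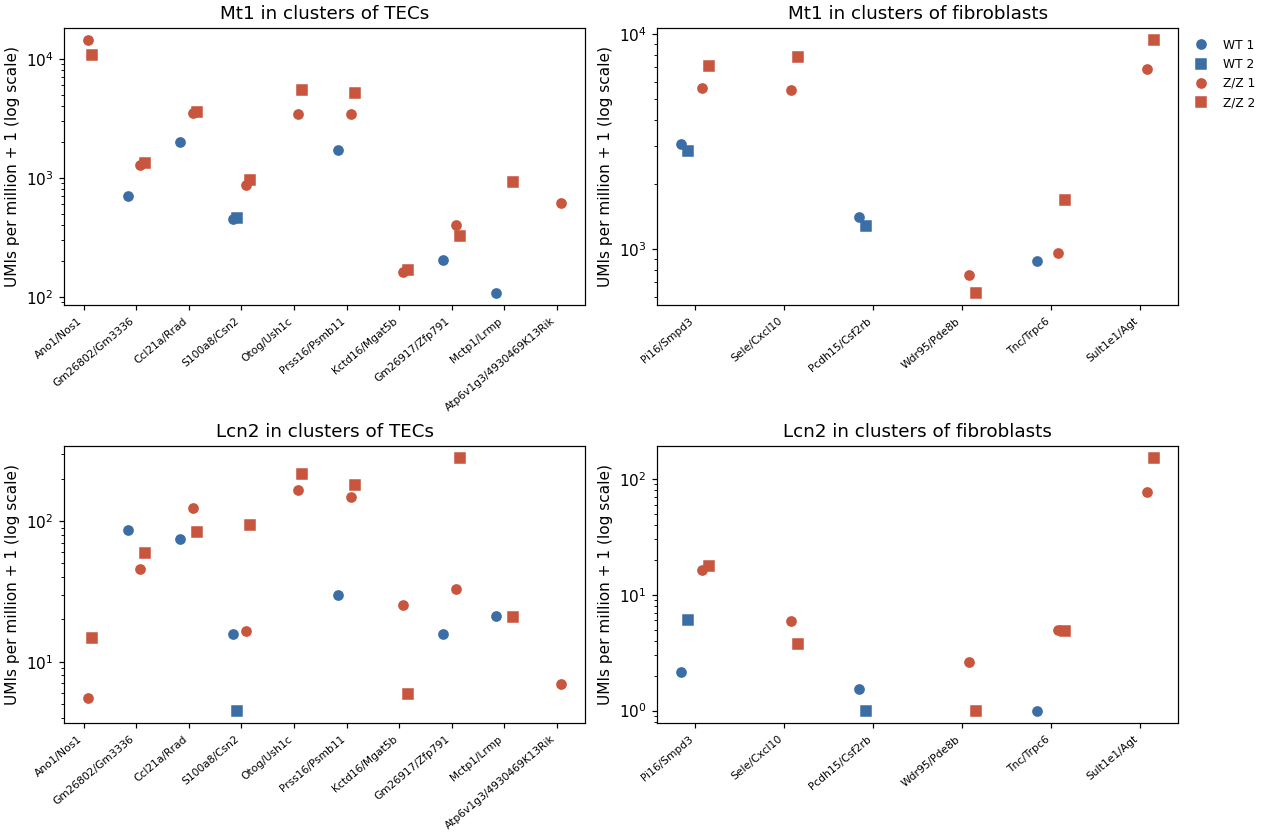
CPM plus 1 (log axes) of Mt1 and Lcn2 in clusters of TECs and of fibroblasts, for each library with at least 20 cells in the cluster. Clusters are named by their 2 leading genes, 1 fibroblast cluster is not shown, and circles and squares are replicates 1 and 2. The Ano1/Nos1 cluster is highest in Mt1 (10768 and 14270) and low in Lcn2 (4.50 and 13.7), and among fibroblasts the Sult1e1/Agt cluster is highest in Lcn2 (75.4 and 149).

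Genes that share these pathways were taken from fixed lists and read from the same fits, with adjusted p from edgeR. The shares of all genes called were those given above: 21.7% in TECs (9.87% higher), 3.05% in fibroblasts (1.82%), 1.87% in endothelial cells (0.943%) and 3.89% in mural cells (2.37%). Among 20 genes of metal handling in TECs, 4 passed as higher and 2 as lower in Z/Z, with a median log2 difference of -0.07 beside 0.00 over all genes. The zinc importers Slc39a14 (1.71 ± 0.25, adjusted p = 0.0132) and Slc39a8 (0.99 ± 0.23, 0.0355) rose. Mtf1, the factor that binds metal response elements (-0.82 ± 0.19, 0.0359), and Hmox1, heme oxygenase (-0.72 ± 0.17, 0.0390), fell. In fibroblasts none of the 17 genes tested passed. In endothelial cells Hmox1 rose (2.19 ± 0.40, adjusted p = 0.0205), and in mural cells the zinc transporter Slc39a7 rose (1.70 ± 0.53, 0.0395).

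Of 18 further genes of the glucocorticoid response, 8 rose and 1 fell in TECs, beside 9.87% of all genes higher and 21.7% called in either direction, with a median of 0.66. The factor Cebpd (2.30 ± 0.17, adjusted p = 0.00737), glutamine synthetase Glul (2.22 ± 0.19, 0.00747), Errfi1 (1.59 ± 0.17, 0.00866) and Klf9 (0.95 ± 0.14, 0.0127) were those with the smallest adjusted p. None of 18 passed in fibroblasts, where the median was 0.22. In endothelial cells Angptl4, a regulator of lipoprotein lipase (3.33 ± 0.33, adjusted p = 0.00140), and the cell cycle inhibitor Cdkn1c (2.58 ± 0.25, 0.00140) rose and Anxa1 fell (-1.02 ± 0.20, 0.0287). The endothelial cells lay in different clusters by genotype: the one led by Angptl4, with Hmox1 among its top genes, held 8, 0, 160 and 156 cells of WT 1, WT 2, Z/Z 1 and Z/Z 2, and those led by Pth1r and by Col13a1 held 4, 0, 169 and 129 and 2, 0, 69 and 54. Their part in these differences was not tested. In mural cells Angptl4 (2.59 ± 0.56, adjusted p = 0.000431) and Cdkn1c (1.37 ± 0.34, 0.00393) rose and Errfi1 fell (-0.74 ± 0.23, 0.0359). Among 15 tested genes of receptor function and steroid handling, 4 rose in TECs. These were the receptor co-chaperones Fkbp4 (1.39 ± 0.17, adjusted p = 0.00942) and Stip1 (0.70 ± 0.18, 0.0450), the chaperone Hsp90aa1 (0.72 ± 0.17, 0.0401) and the co-repressor Ncor1 (0.54 ± 0.14, 0.0455). Fkbp4, Hsp90aa1 and Hsp90ab1 also rose in endothelial cells, by 1.94, 1.17 and 1.17, and no gene of the list passed in fibroblasts or mural cells.

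The acute phase list, to which Lcn2 belongs by function, moved in both directions in TECs. There 5 of 20 genes rose (9.87% of all genes did), among them Socs3, the feedback inhibitor of cytokine signals (2.31 ± 0.27, adjusted p = 0.00913), and Nfkbiz (1.18 ± 0.14, 0.00908), and 3 fell, among them Saa2 (-4.61 ± 0.48, 0.00839) and Orm1 (-4.52 ± 0.53, 0.00913). The TECs lay in different clusters by genotype. The cluster with Aire held 283 of 558 and 49 of 103 WT TECs, against 59 of 1962 and 83 of 1544 in Z/Z. The part of this in the TEC differences of the lists was not tested. In fibroblasts 8 of 18 genes of the list rose, beside 1.82% of all genes, and none fell, led by the chemokines Cxcl5 (4.17 ± 0.29, adjusted p = 0.000342) and Cxcl1 (1.81 ± 0.16, 0.000794), Saa3 (3.72 ± 0.30, 0.000617) and Il6 (1.81 ± 0.18, 0.00137). Fibroblasts too lay in different clusters by genotype. The cluster led by Sele and Cxcl10 held 11, 6, 404 and 141 cells of WT 1, WT 2, Z/Z 1 and Z/Z 2. That led by Pcdh15 held 279, 112, 6 and 13. Their part in the fibroblast differences was not tested. Steap4, a metalloreductase, rose in endothelial cells (3.40 ± 0.73, adjusted p = 0.0381, edgeR) and mural cells (1.86 ± 0.30). It is a leading gene of the small endothelial cluster with Lin7a, Ccl11 and Rgs4, which also held mural markers. That cluster held 2, 1, 24 and 19 cells of WT 1, WT 2, Z/Z 1 and Z/Z 2. The endothelial value of Steap4 is not given without it. The clock list had 2 of 13 genes higher in TECs, Per2 (0.89 ± 0.19, adjusted p = 0.0292) and Cry1 (0.73 ± 0.17, 0.0350), and 1 of 12 lower in fibroblasts, Bhlhe40 (-0.69 ± 0.15, 0.0487). Of the 17 immediate early genes, 9 rose and none fell in TECs (median 0.94, beside 9.87% of all genes higher), 1 rose in fibroblasts (Nr4a1, 1.26 ± 0.16, adjusted p = 0.00465), none passed in endothelial cells, and Zfp36 and Egr1 fell in mural cells (-1.08 and -1.06).

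The same lists were counted in free RNA. There 12 of 17 genes of the glucocorticoid response rose and 1 fell (median 1.37), 12 of 18 acute phase genes rose and 1 fell (median 1.37), and 16 of 17 immediate early genes rose (median 1.73). Of the 18 genes of metal handling tested, 1 rose and 1 fell (median -0.11). For receptor function and steroid handling, 5 of 12 rose and 2 fell (median 0.46), and for the clock list 3 of 11 rose and 1 fell (median 0.48). Of all genes in free RNA, 29.5% were called and 15.1% rose, and the median was -0.01.

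Likeness of profiles was measured as Pearson's r of log2 values over the 15 sums of library and lineage, among 9792 genes. The sums share libraries and lineages, so r is a description and carries no test. Closest to Mt1 were Anxa6 (0.96), A530013C23Rik (0.96), Trabd2b (0.96), S1pr3 (0.95) and Selenbp1 (0.94), and closest to Lcn2 were Sms (0.94), Chd3 (0.93), Prxl2a (0.92), S100a1 (0.91) and Kif19a (0.91). Mt1 and Mt2 had an r of 0.91, Mt1 and Lcn2 of 0.30 and Mt1 and Sgk1 of -0.79. Among the receptor and its targets, Sgk1 and Nr3c1 had the highest r (0.72) and Tsc22d3 and Zbtb16 the lowest (-0.79).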

How the data were processed

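Per the labels and the study's methods, CD45-negative cells were sorted and sequenced with a droplet 3′ kit, and the authors counted reads with Cell Ranger (version 7.01 in the submitters' processing notes) on mm10, intronic reads included. The deposited values are raw UMI counts per gene and barcode, in filtered and raw matrices, and the authors' run metrics are given in percent. Saturation was 65.2% to 95.2%, so depth differed between libraries. Cells with more than 1000 genes and under 20% mitochondrial UMIs were kept (10245 of 13981). Scrublet marked 144 doublets (1.41%), and the top 3.9% of scores (399 cells) were removed. Clustering (scanpy 1.11.5, leidenalg 0.10.2, resolution 1) held out 240 genes, namely the 9 genes, the gene lists and the markers. Lineages were named from markers with a minimum score of 0.3, and that limit and the rule for the Nos1 cluster (under 25% of cells with Epcam and under 20% with Pdgfra) were set after seeing the data.

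UMIs were summed per library and lineage and scaled to the same total (CPM), with 111 ribosomal protein and haemoglobin features left out. Sums of under 20 cells were not used, which removed mural cells of WT 2 and left 15 sums where 16 were planned. Sums were fitted with edgeR 4.0.16 (R 4.3.3; TMM, quasi-likelihood, two-sided, Benjamini-Hochberg over all genes tested, threshold 0.05), with the library as a block between lineages. SE is the log2 difference over the root of F. DESeq2 1.42.0 was an alternative. Replicate numbers did not pair the samples (r of deviations -0.09 in TECs, -0.06 in fibroblasts and -0.01 in endothelial cells). Intervals and floors (3 counts, 95%) cover counting error only. All 9 genes are named, with at most 4 called genes by smallest adjusted p from each list and fit, and the 5 genes most like Mt1 and Lcn2 in log2(CPM + 1). The genes and lists were chosen with earlier results of these data known. The fits were tested on simulated data. One fibroblast cluster is not reported here.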

Additional observations from a re-analysis of the deposited data

Results flagged for a closer look

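For 4 genes, both Z/Z libraries lay on one side of both WT libraries in one lineage and on the other side in another. The share of all genes that do so was not computed. Of all genes tested, the genotypes did not overlap for 67.2% in TECs, 50.7% in fibroblasts and 53.3% in endothelial cells. Nothing about the 4 genes is read from this count or from the cluster counts below. The log2 difference of Z/Z over WT for Zbtb16 was 1.16 in TECs, -0.58 in fibroblasts and -0.83 in endothelial cells. For Fkbp5 it was 0.76 in TECs, -0.55 in fibroblasts and -0.92 in endothelial cells. For Sgk1 it was 0.45 in endothelial cells and -0.36 in fibroblasts, and for Tsc22d3 0.48 in endothelial cells and -0.27 in fibroblasts. Of the 3 endothelial clusters compared, Sgk1 was higher in Z/Z in 1 and lower in 2. Tsc22d3 was lower in 1 of them and overlapped in 2. Of the 5 TEC clusters compared, Fkbp5 was higher in 2, lower in 2 and overlapping in 1. Zbtb16 was higher in 3 of those, lower in 1 and overlapping in 1. Cells lay in different clusters by genotype, and the part of this in the sums was not tested. The difference between lineages was not tested for any of the 4 genes.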

How the results depend on the processing

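Of the single-gene lineage values that passed the test or join neighbours in the order of levels of a gene with a call, 958 kept direction and side of the threshold, 43 lost the call, 10 gained one and 24 changed sign, and the cause was not tested. Those sign changes were in differences that had not passed the test, apart from Lcn2 between endothelial and mural cells in the WT libraries alone (-0.038, both lineages at 0). Per1 in TECs minus endothelial cells became 0.049 with DESeq2 and 0.31 without TMM, and ranged from -0.16 to 0.012 with a library left out (highest without WT 1). Fkbp5 in the same contrast became 0.50 in thinned cells, 0.27 in the Z/Z libraries alone and 0.031 without TMM. Mt2 in TECs minus mural cells ranged from -0.46 to 0.0089 with a library left out (highest without WT 1) and became 0.0083 in thinned cells, 0.024 in the Z/Z libraries alone and 0.17 without TMM. Fkbp5 in TECs minus mural cells ranged from -0.11 to 0.45 with a library left out (-0.09 without Z/Z 1) and was -0.75 in the WT libraries alone. Lcn2 in fibroblasts minus endothelial cells became 0.0019 with DESeq2, 0.98 in thinned cells, 5.27 in the WT libraries alone and 0.047 without the Rgs4 cluster, and ranged from -0.30 to 0.0054 with a library left out (highest without Z/Z 1). Per1 in that contrast ranged from -0.060 to 0.20 with a library left out (below 0 without either Z/Z library) and became -0.031 without doublet removal and -0.29 in the WT libraries alone, and Zbtb16 in fibroblasts minus mural cells became -0.055 in the Z/Z libraries alone. Outside that count, differences of Tsc22d3, which has no call, and of Per1 between TECs and fibroblasts also changed sign: Tsc22d3 in TECs minus mural cells (-0.0055) did so under most alternatives (0.47 without TMM), and Per1 in TECs minus fibroblasts (-0.12) became 0.26 without TMM.

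Without the library block, Mt1 lost its call in TECs against fibroblasts (-0.96, adjusted p = 0.263, edgeR) and mural cells (-1.60, 0.0883). The number of the 9 genes called between TECs and mural cells was 3 to 6 with a library left out (3 without Z/Z 2). Between fibroblasts and mural cells it was 2 to 5 (3 without Z/Z 1, 2 without Z/Z 2), 3 without the library block and 2 in the WT libraries alone, and between fibroblasts and endothelial cells 6 in the Z/Z libraries alone. Between genotypes it was 6 in fibroblasts without a filter. In endothelial cells it was 1 with DESeq2, 4 without a filter, 1 in thinned cells, 1 to 4 with a library left out (4 without WT 2, 1 without Z/Z 1) and 4 with the replicate block, which left the TEC, fibroblast and free RNA counts at 4, 3 and 7. In mural cells, where 1 WT library stands against 2, it was 1 with DESeq2, without a filter, without doublet removal, with shared barcodes kept once and with either free RNA ceiling subtracted. It was 0 by edgeR in mural cells under 10% mitochondrial UMIs, over 500 genes, in thinned cells, at resolution 0.5 and with the genes kept in clustering (3, 3, 2, 2 and 3 genes at an unadjusted p under 0.05). In free RNA of over 100 and up to 300 UMIs it was 0 (2 at an unadjusted p under 0.05). The free RNA ceiling from thymocyte markers alone was 15.1% in TECs, 4.17% in fibroblasts, 7.86% in endothelial and 7.10% in mural cells. From barcodes of over 100 and up to 300 UMIs it was 3.69% in endothelial and 3.94% in mural cells, without doublet removal 5.25% and 3.69%, and from 1 to 30 UMIs 2.39% in mural cells. The highest cluster mean of Mt1 was 17031 in TECs and 11817 in fibroblasts at resolution 2, and that of Lcn2 in fibroblasts was 16.9 at resolution 0.5 and 165 in thinned cells.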
